A study of Mus musculus with 12 samples.

Results

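Genes of the IL-1 family and of the inflammasome were followed by RNA sequencing in macrophages grown from mouse bone marrow. They are 10 genes, chosen by name from the 47937 genes counted, by the cytokine, inhibitor, sensor, protease or pore they encode, and their Ensembl identifiers were matched to mouse symbols. The members are *Il1a*, *Il1b* and *Il1rn* (IL-1α, IL-1β and the IL-1 receptor antagonist), *Il18* and *Il18bp* (IL-18 and its binding protein), *Nlrp3* and *Nlrp1b* (inflammasome sensors), *Casp1* and *Casp4* (inflammatory caspases) and *Gsdmd* (gasdermin D). All 10 were found, and all 10 were among the 11760 genes with enough reads to be tested.

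The cells came from C57BL/6 mice and were grown for 7 days in CSF-1 (20 ng/ml), so that every group shares this culture. There were 4 groups of 3 libraries. Macrophages were left resting (M0) or received LPS (20 ng/ml) plus IFNγ (50 ng/ml) over 18 h, and the other groups were M0 given the DGAT1 inhibitor T863 (DGAT1i, 50 μM) for 18 h, and cells given IFNγ + LPS together with DGAT1i for 18 h. DGAT1 carries out the last step of triacylglycerol synthesis. The labels give no time for M0, no age of the mice and no vehicle, and in the description field of 2 of the 3 libraries of M0 with DGAT1i the compound has another number, which was read as T863. The labels do not say whether the libraries of a group came from separate mice or cultures, so the p-values measure only the spread between these samples.

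IL-1α and IL-1β are cytokines that signal through the same receptor, and IL-1Ra occupies that receptor without starting a signal. IL-1β and IL-18 are made as inactive precursors. NLRP3 and NLRP1B sense danger and assemble a complex that activates caspase 1, which cuts both precursors and gasdermin D. Caspase 11, the product of *Casp4* in mice, senses LPS inside the cell and also cuts gasdermin D, whose fragment opens pores in the plasma membrane. IL-18 binding protein captures IL-18 outside the cell. Assembly, cutting and release act on protein, and RNA levels do not measure them.

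Between 4996014 and 6621671 reads were counted per library. Levels are given as CPM, the reads of a gene scaled to a common library size by TMM, and 1 CPM was worth 4.28 to 7.58 reads. Libraries of a group correlated with r of 0.988 to 0.992 on log2 CPM. All 9 macrophage markers examined, among them *Adgre1*, *Csf1r* and *Cd68*, had reads in every group, while of 5 T cell markers *Cd3e*, *Cd3g* and *Trac* had 0 reads in all 12 libraries and the summed level of the 5 was at most 0.375 CPM. Of 9 neutrophil markers *Ly6g* had 0 reads throughout, but 6 to 8 had reads in each group. Fold changes are log2 values with their standard errors from edgeR's quasi-likelihood fit of all 12 libraries, and p-values are adjusted by Benjamini-Hochberg over the 11760 genes tested, with 0.05 as the threshold. In these bulk samples, fewer cells of a type and less RNA per cell cannot be told apart.

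The promoters of the genes on which the results turn are shown first, as the 250 bases before the RefSeq start site on GRCm38.p6. The agonists *Il1a* and *Il1b* fell under the inhibitor in stimulated cells while *Il1rn* did not, and *Nlrp1b* was low in a single group, so these 4 are printed. Capitals mark matches to any of 8 motifs searched on both strands, namely NF-kB and the ISRE by their consensus, GAS (TTCNNNGAA), AP-1 (TGANTCA), CRE (TGACGTCA), C/EBP (TTGCNNAA), PU.1 (GAGGAA) and the TATA box (TATAAA), where N is any base. Each sequence reads 5′ to 3′ on the strand of its gene.

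Il1a, chr2:129309973-129310222, minus strand: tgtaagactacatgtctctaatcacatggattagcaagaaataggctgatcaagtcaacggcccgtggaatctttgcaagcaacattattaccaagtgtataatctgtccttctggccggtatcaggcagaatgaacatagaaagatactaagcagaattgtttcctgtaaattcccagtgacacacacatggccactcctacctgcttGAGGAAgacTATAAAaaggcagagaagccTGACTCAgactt
Il1b, chr2:129371140-129371389, minus strand: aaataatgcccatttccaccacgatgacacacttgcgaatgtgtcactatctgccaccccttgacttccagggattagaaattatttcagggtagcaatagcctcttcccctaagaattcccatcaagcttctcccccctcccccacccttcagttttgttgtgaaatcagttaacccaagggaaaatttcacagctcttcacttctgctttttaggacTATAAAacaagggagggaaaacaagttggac
Il1rn, chr2:24336610-24336859, plus strand: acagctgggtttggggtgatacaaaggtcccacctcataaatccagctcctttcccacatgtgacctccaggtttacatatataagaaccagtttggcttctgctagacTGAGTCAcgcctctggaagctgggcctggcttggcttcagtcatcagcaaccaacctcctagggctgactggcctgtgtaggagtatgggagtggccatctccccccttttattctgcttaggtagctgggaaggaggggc
Nlrp1b, chr11:71230734-71230983, minus strand: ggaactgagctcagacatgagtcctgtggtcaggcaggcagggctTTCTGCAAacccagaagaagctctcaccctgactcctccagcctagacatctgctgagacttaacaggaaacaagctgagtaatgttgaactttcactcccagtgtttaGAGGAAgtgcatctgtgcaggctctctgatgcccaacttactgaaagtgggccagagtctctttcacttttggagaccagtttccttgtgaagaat

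*Il1a* and *Il1b* both held a TATA box, at positions -32 to -27 and -31 to -26 from the start site, as did 12.37% of the 32851 mouse promoter windows of this length. *Il1a* also held an AP-1 match at -12 to -6 and a PU.1 match at -41 to -36. *Il1rn* held an AP-1 match at -141 to -135, and AP-1 was matched in 6.75% of all windows. RefSeq gives *Il1rn* 3 start sites, of which the first is shown; the windows of the other 2 held none of the 8 motifs, and the read counts do not separate the starts. *Nlrp1b* held a C/EBP match at -205 to -198 and a PU.1 match at -96 to -91, motifs found in 9.56% and 23.25% of all windows. The window of its other RefSeq start site held none of the 8 motifs. *Casp4* held NF-kB matches, overlapping by all but 1 base, which begin 93 and 92 bases before its first start site, and NF-kB was matched in 3.9% of all windows. *Nlrp3* held an NF-kB match at -186 to -177 from its second start site. Such matches describe letters and are not sites shown to be bound. Of the 10 genes, 9 had a window in the table used.

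By position on GRCm38 (GENCODE M21), *Il1a* (chr2:129299610-129309972) and *Il1b* (chr2:129364570-129371139) lie on the minus strand of chromosome 2 with 54597 bases between them, and *Il1rn* (chr2:24336853-24351494) lies far from both. *Casp1* (chr9:5298517-5307265) and *Casp4* (chr9:5308828-5336783) are neighbours on the plus strand of chromosome 9, with 1562 bases between them, and *Il18* (chr9:50554827-50581840) is on the same chromosome. The other genes are *Il18bp* (chr7:102014885-102018690, minus strand), *Nlrp3* (chr11:59541568-59566956, plus strand), *Nlrp1b* (chr11:71153102-71230733, minus strand) and *Gsdmd* (chr15:75862327-75867408, plus strand). Exons of *Il1a* share 222 bases with *Gm14023*, those of *Il1b* share 25 bases with *Il1bos*, and those of *Il18bp* share 80 bases with *Numa1*, each on the opposite strand, and whether counting used the strand is not given in the sources used here. *Gm14023* and *Il1bos* had at most 4 and 1 reads in any library, whereas *Numa1* had 583 to 2177. No other gene matched 20% of a transcript of any of the 10 at 95% identity or more.

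**Figure D1:**
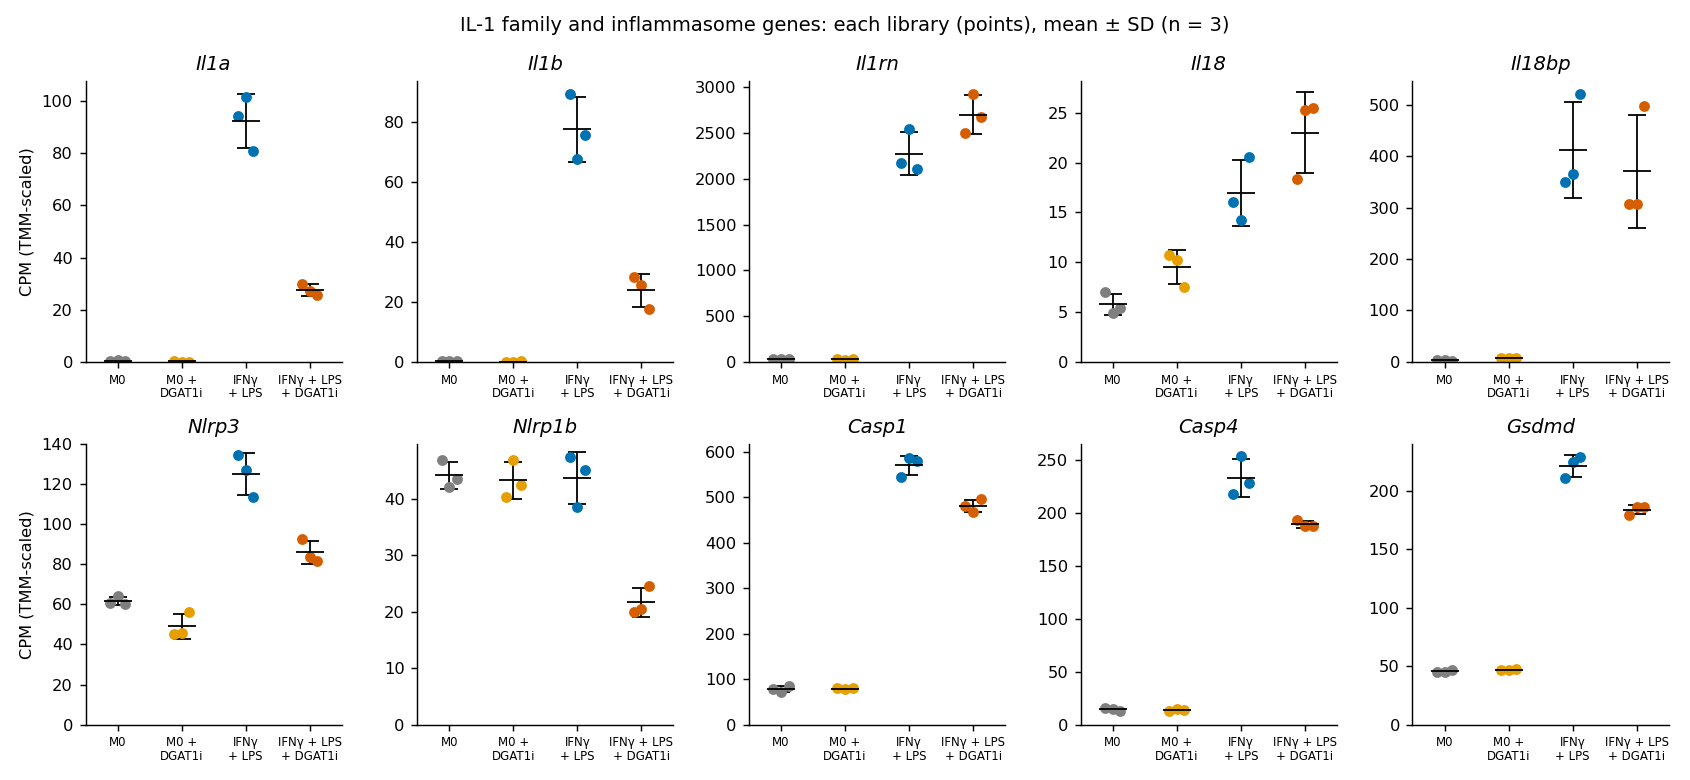
Level of each of the 10 genes (CPM after TMM scaling, linear axes from 0) in M0, M0 with DGAT1i, IFNγ + LPS, and IFNγ + LPS with DGAT1i; points are single libraries and bars the mean ± SD of 3 libraries. *Il1a* and *Il1b* are near 0 in both resting groups and lower with than without DGAT1i in the stimulated groups, *Nlrp1b* is low only in IFNγ + LPS with DGAT1i, and the libraries numbered 3 stand highest for *Il18bp* in both stimulated groups.

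The first comparison asked what IFNγ + LPS did to these genes. Of the 10 genes, 9 were higher with IFNγ + LPS than in M0, against 37.1% of all genes tested that were higher and 73.3% that were called in either direction. None of the 10 was lower. In all 9 the 3 libraries of each group did not overlap, as in 75.4% of all genes. The median log2 fold change over the 10 genes was 3.44, and over all genes 0.01. Marker genes moved with this step too. Of the 9 macrophage markers 3 were higher and 6 lower, of the 4 neutrophil markers with enough reads 2 were lower, and both dendritic cell markers with enough reads were higher. With DGAT1i in both groups the counts were 4 higher and 5 lower of 9, 3 higher of 4, and 2 higher of 2. *Cd79b*, the one B cell marker with enough reads, was lower in both comparisons (log2 -4.76 and -1.78). The 5 B cell markers together stood at 2.03 to 2.66 CPM in M0 and at 0.211 to 0.749 CPM with IFNγ + LPS. Of these 5, 2 had reads in M0 and all 5 with IFNγ + LPS. The part of the marker genes in the results was not tested.

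The IL-1 cytokines went from nearly no reads to moderate levels. *Il1a* had 2, 6 and 3 reads in the M0 libraries, and 94.1, 101 and 80.9 CPM with IFNγ + LPS. *Il1b* had 1, 3 and 3 reads in M0, and 89.1, 67.5 and 75.7 CPM with IFNγ + LPS. With so few reads in M0, the rise is given as a ratio of CPM over the group with an exact 95% counting interval, which was 181 (101 to 363) for *Il1a* and 237 (115 to 590) for *Il1b*, and which covers counting error only. By edgeR both rose (adjusted p = 2.44e-33 and 2.25e-23).

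*Il1rn*, which encodes the antagonist of both cytokines, was already present in M0, at 32.3, 34.2 and 30.9 CPM. It stood at 2171, 2543 and 2114 CPM with IFNγ + LPS. The rise was 6.13 ± 0.09 on the log2 scale (SE, edgeR, adjusted p = 1.05e-29). The stimulated libraries all lay far above the M0 libraries.

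*Il18* and the gene of its inhibitor both rose. *Il18* stood at 6.97, 4.93 and 5.43 CPM in M0 and at 16.0, 14.2 and 20.6 CPM with IFNγ + LPS, a log2 rise of 1.56 ± 0.19 (edgeR, adjusted p = 9.97e-11). *Il18bp* had 23, 31 and 18 reads in the M0 libraries, and 349.9, 365 and 520.0 CPM with IFNγ + LPS, a log2 rise of 6.94 ± 0.63 (edgeR, adjusted p = 1.64e-07). Replicate 3 stood above the other libraries of the stimulated group, and the mean there was 412 ± 94.1 CPM (SD, n = 3). The reads of *Il18* per read of *Il18bp* in a library were 41.8-fold lower with IFNγ + LPS than in M0, with no overlap (exact permutation p = 0.1, the smallest possible with 3 against 3).

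The sensors parted. *Nlrp3* rose from 60.9, 64.1 and 60.3 CPM in M0 to 135, 127 and 114 CPM, a log2 rise of 1.02 ± 0.07 (edgeR, adjusted p = 2.24e-18). *Nlrp1b* stood at 46.8, 42.1 and 43.6 CPM in M0 and at 47.4, 38.5 and 45.1 CPM with IFNγ + LPS, with overlapping groups. Its log2 fold change was -0.02 with a 95% interval of -0.20 to 0.16 (edgeR, adjusted p = 0.86). Scaled by library size only, which puts the median of all genes at -0.46, *Nlrp1b* was lower with IFNγ + LPS by that setting (log2 -0.49, edgeR, adjusted p = 4.16e-06).

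The proteases and the pore rose in every stimulated library. *Casp1* stood at 77.4, 71.8 and 85.5 CPM in M0 and at 546, 586 and 579.6 CPM with IFNγ + LPS, a log2 rise of 2.87 ± 0.06. *Casp4* went from 15.4, 14.6 and 13.2 CPM to 218, 254 and 229 CPM, a log2 rise of 4.02 ± 0.09. *Gsdmd* went from 44.7, 44.9 and 46.6 CPM to 211, 224 and 229 CPM, a log2 rise of 2.28 ± 0.06. The adjusted p-values by edgeR were 4.93e-44, 5.99e-45 and 5.48e-38, and the 95% intervals of the neighbours *Casp1* (2.75 to 2.98) and *Casp4* (3.83 to 4.20) did not overlap.

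The central comparison asked what DGAT1i did to macrophages stimulated with IFNγ + LPS. Of the 10 genes, 9 were called, 7 lower and 2 higher with DGAT1i. Among all genes tested 29.8% were called, 16.3% lower and 13.5% higher. The median log2 fold change was -0.29 over the 10 genes and -0.01 over all genes. In 7 of the 10 the libraries of the groups did not overlap, against 39.7% of all genes. DESeq2 called 7 of the 10, without *Il1rn* and *Il18*, and 21.8% of all genes for which it gave an adjusted p.

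The agonists and the antagonist moved apart. *Il1a* stood at 29.8, 27.1 and 25.5 CPM and *Il1b* at 28.2, 25.7 and 17.7 CPM with IFNγ + LPS and DGAT1i, all below the lowest library without it. The log2 falls, -1.74 ± 0.11 and -1.68 ± 0.13, differed by less than either standard error (edgeR, adjusted p = 1.36e-17 and 3.15e-12). *Il1rn* stood at 2505, 2926 and 2672 CPM, of which the lowest lay below the highest library without DGAT1i, and its log2 change was 0.25 ± 0.07 (edgeR, adjusted p = 0.00524). That call was lost with DESeq2 (adjusted p = 0.0732), and by edgeR without both stimulated libraries numbered 3 (adjusted p = 0.0845).

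The reads of an agonist per read of its antagonist within the same library do not depend on how libraries are scaled. For *Il1b* to *Il1rn* the log2 ratios were -4.61, -5.23 and -4.80 with IFNγ + LPS, and -6.47, -6.83 and -7.23 with DGAT1i added. The mean ratio was 3.89-fold lower with DGAT1i, and no library of one group reached the other. For *Il1a* to *Il1rn* it was 3.97-fold lower, from -4.63 ± 0.09 to -6.61 ± 0.20 (log2, mean ± SD, n = 3), again without overlap. In both cases the exact two-sided permutation test gave p = 0.1, the smallest that 3 against 3 libraries allow, so that the test cannot pass 0.05. The ratios of *Il1b* to *Il1rn* with IFNγ + LPS and DGAT1i, -6.84 ± 0.38, overlapped those of M0, -6.47 ± 0.65, which rest on 1 to 3 reads of *Il1b* a library.

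*Il18* and *Il18bp* gave the weakest results of the comparison. *Il18* stood at 18.3, 25.2 and 25.5 CPM with DGAT1i, overlapping the libraries without it, with a log2 change of 0.44 ± 0.15 (edgeR, adjusted p = 0.0233). The call for *Il18* was lost with DESeq2 (adjusted p = 0.117) and with any of 4 stimulated libraries left out (IFNγ + LPS replicate 1 or 2, or, among those with DGAT1i, replicate 2 or 3), where adjusted p was 0.0801 to 0.172. *Il18bp* stood at 306, 307 and 497 CPM, again with replicate 3 on top, and its log2 change was -0.16 with a 95% interval of -0.65 to 0.33 (edgeR, adjusted p = 0.642). Without both stimulated libraries numbered 3, *Il18bp* was lower with DGAT1i (log2 -0.23, edgeR, adjusted p = 0.0107). The log2 ratio of *Il18* to *Il18bp* was -3.98 ± 0.35 with DGAT1i and -4.59 ± 0.13 without (mean ± SD, n = 3), 1.53-fold higher, with no overlap and an exact permutation p of 0.1.

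**Figure D2:**
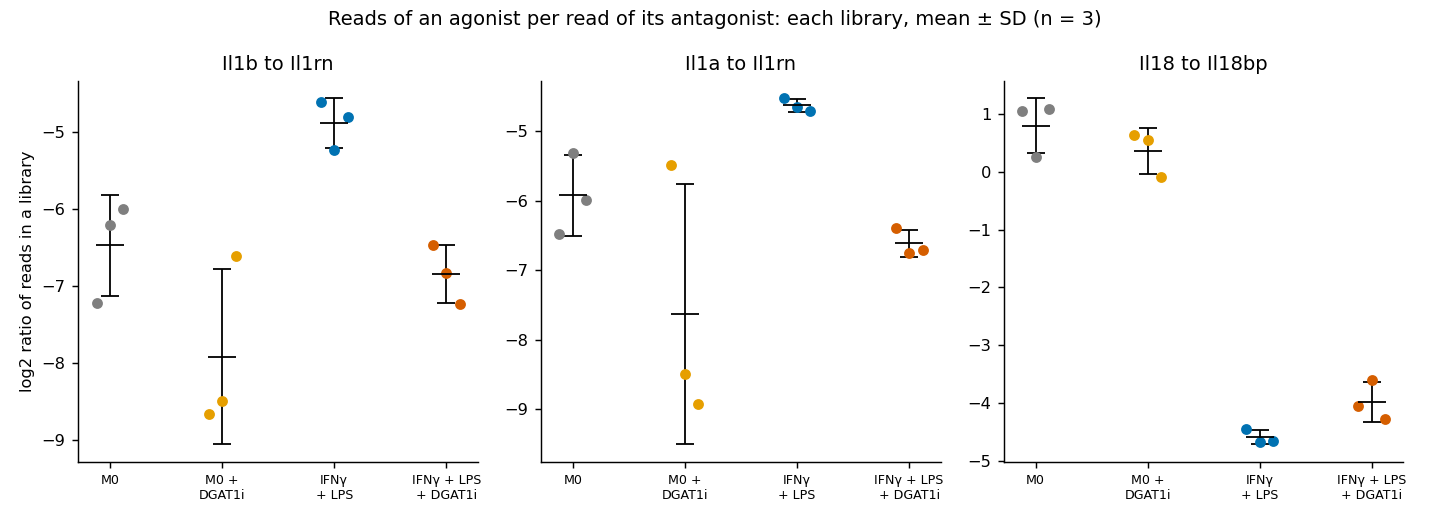
Log2 ratio of the reads of *Il1b* to *Il1rn*, *Il1a* to *Il1rn* and *Il18* to *Il18bp* (0.5 reads added to each count) in each library, by group; points are libraries and bars the mean ± SD of 3 libraries. Both IL-1 ratios are lower in the 3 libraries of IFNγ + LPS with DGAT1i than in the 3 of IFNγ + LPS, and the ratios of M0 with DGAT1i are wide because they rest on 0 to 4 reads of *Il1a* or *Il1b*.

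Both sensors were lower with DGAT1i. *Nlrp1b*, which had not been called between M0 and IFNγ + LPS, stood at 20.0, 20.4 and 24.5 CPM with IFNγ + LPS and DGAT1i, below every library of the other 3 groups. Its log2 fall was -1.01 ± 0.11 (edgeR, adjusted p = 6.56e-11). *Nlrp3* stood at 92.6, 83.9 and 81.7 CPM, a log2 fall of -0.54 ± 0.07 (edgeR, adjusted p = 5.94e-08), which left it above its level in M0.

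*Casp1*, *Casp4* and *Gsdmd* were lower by small and like amounts. With DGAT1i, *Casp1* stood at 481, 468 and 495 CPM, *Casp4* at 193, 188 and 188 CPM, and *Gsdmd* at 179, 186 and 186 CPM. All 9 values lay below the lowest library of the same gene without DGAT1i. The log2 falls were -0.24 ± 0.05, -0.30 ± 0.06 and -0.27 ± 0.06 (edgeR, adjusted p = 0.000217, 5.08e-05 and 0.000124), and all 9 values stayed above every M0 library.

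**Figure D3:**
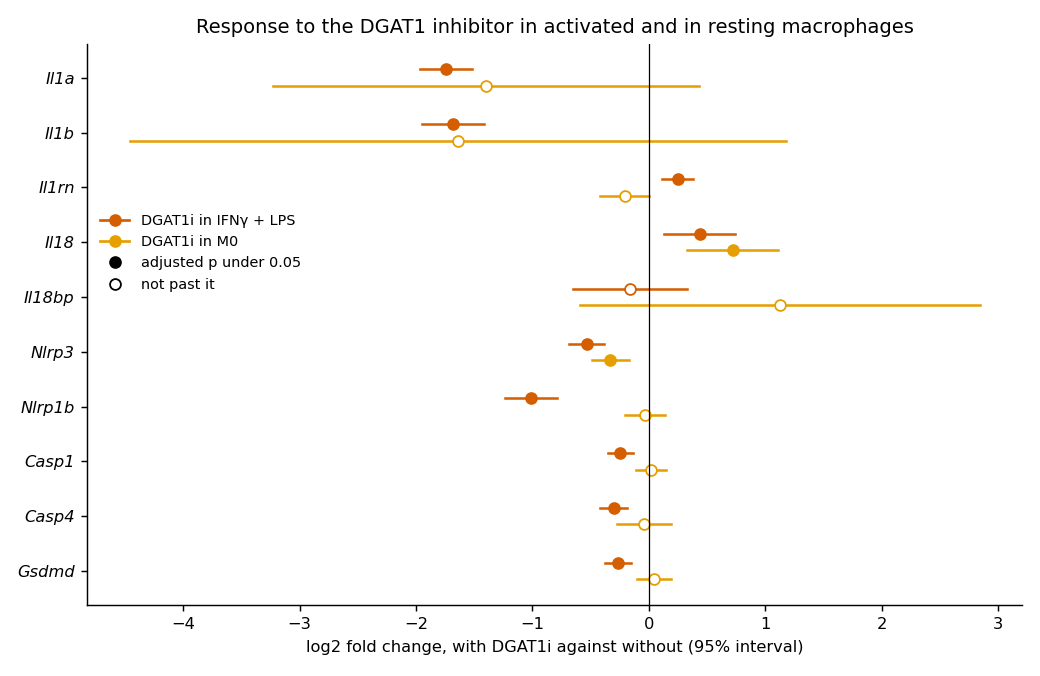
Log2 fold change with DGAT1i against without, in IFNγ + LPS (red) and in M0 (orange), for the 10 genes; lines are 95% intervals and filled points passed an adjusted p of 0.05 in edgeR. The intervals of *Il1a* and *Il1b* in M0 are wide because M0 with DGAT1i held 4 and 2 reads of them, and *Nlrp1b* stands at -1.01 in IFNγ + LPS and at -0.03 in M0.

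Markers of another cell type moved with this comparison. The summed level of the 9 neutrophil markers was 15.4 to 26.0 CPM with IFNγ + LPS and 63.2 to 81.5 CPM with DGAT1i added, and the 4 of them with enough reads, *S100a8*, *S100a9*, *Ngp* and *Ltf*, were all higher (log2 1.92, 1.70, 2.68 and 2.12). *Ly6g*, the defining surface marker, was at 0 in every library. The summed level of the 5 dendritic cell markers was 8.05 to 11.2 CPM without and 3.50 to 6.77 CPM with DGAT1i. Of the 2 with enough reads 1 was called, lower, and the other changed in the opposite direction without a call. *Cd79b*, the B cell marker with enough reads, had a log2 change of 1.87 and was not called. The 5 B cell markers together reached at most 0.749 CPM without and 0.700 CPM with DGAT1i. The summed macrophage markers overlapped, at 8381 to 9030 CPM without and 7979 to 8945 CPM with DGAT1i, but 4 of the 9 were called, *Itgam* (log2 -0.60), *Adgre1* (-0.36) and *Fcgr1* (-0.27) lower and *Cd68* (0.48) higher. Their part in the results was not tested.

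The next comparison was that of DGAT1i in M0. Of the 10 genes, 2 were called, *Il18* higher and *Nlrp3* lower, against 24.4% of all genes (11% higher, 13.4% lower). In 3 genes, *Il18*, *Nlrp3* and *Il18bp*, the groups did not overlap, against 37.8% of all genes. *Il18* stood at 10.8, 10.2 and 7.52 CPM with DGAT1i, a log2 rise of 0.72 ± 0.19 over M0 (edgeR, adjusted p = 0.00313). *Nlrp3* stood at 45.3, 45.7 and 56.1 CPM, a log2 fall of -0.33 ± 0.08 (edgeR, adjusted p = 0.000881). For *Il18* and *Nlrp3* the direction was thus that seen with IFNγ + LPS. Markers moved here as well. The summed macrophage markers were at 13283 to 14518 CPM in M0 and 16235 to 18258 CPM with DGAT1i, with 3 of 9 called higher and 2 lower, among them *Cd14* (log2 -0.78). The summed neutrophil markers were at 31.7 to 38.8 CPM in M0 and 23.0 to 29.4 CPM with DGAT1i, and the 4 with enough reads had log2 changes of -0.50 to -0.38 (edgeR, adjusted p = 0.072 to 0.222). The B cell marker *Cd79b* was lower (log2 -1.11, edgeR, adjusted p = 0.0296). Their part in the results was not tested.

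*Il18bp* had 52, 49 and 61 reads in M0 with DGAT1i, all above the 18 to 31 reads of the M0 libraries. Its log2 change was 1.13 ± 0.75 in the fit of all 12 libraries (edgeR, adjusted p = 0.324), where the spread is shared with the stimulated groups. In a fit of the 6 resting libraries alone the change was 1.13 with an adjusted p of 6.28e-05, and with DESeq2 adjusted p was 0.00598. Over all settings tried for *Il18bp* in M0, adjusted p ranged from 3.2e-06 to 0.509, and the ratio of CPM was 2.19 with a counting interval of 1.65 to 2.93.

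*Il1a* had 4, 0 and 0 reads and *Il1b* 0, 0 and 2 reads in the libraries of M0 with DGAT1i, where 3 reads, the limit that a count of 0 allows, correspond to 0.396 to 0.426 CPM. The ratio to M0 was 0.354 (95% counting interval 0.0823 to 1.20) for *Il1a* and 0.278 (0.0282 to 1.46) for *Il1b*. With so few reads neither gene was called between these groups (edgeR, adjusted p = 0.217 for *Il1a* and 0.321 for *Il1b*). The 95% intervals of the log2 change were wide, at -3.23 to 0.43 and -4.46 to 1.18. Without replicate 1 of M0 with DGAT1i, the library with all 4 reads, *Il1a* was called (edgeR, adjusted p = 0.01). *Il1rn* stood at 26.7, 25.4 and 32.1 CPM, with a log2 change of -0.21 ± 0.10 (edgeR, adjusted p = 0.157, and 0.0246 without replicate 3 of M0 with DGAT1i). The remaining 4 genes had log2 changes between -0.04 and 0.04, and the 95% interval widest among them, that of *Casp4*, ran from -0.28 to 0.19.

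The difference between the DGAT1i responses in stimulated and in resting cells was tested directly. It was called for 4 of the 10 genes, against 18.5% of all genes. *Il1rn* was called higher (log2 0.46 ± 0.12, edgeR, adjusted p = 0.00903), and *Nlrp1b* (-0.98 ± 0.14), *Casp1* (-0.27 ± 0.08) and *Gsdmd* (-0.31 ± 0.09) lower, with adjusted p of 2.76e-07, 0.0169 and 0.00958. Among all genes, 8.66% were called higher and 9.8% lower. Without replicate 2 of M0 the number called fell to 2, as *Il1rn* (adjusted p = 0.05) and *Casp1* (adjusted p = 0.095) were lost. *Casp1* was also lost with library size only (adjusted p = 0.061). *Il18bp* had the difference farthest from 0 (-1.29 ± 0.78, edgeR, adjusted p = 0.297), which was called with DESeq2 (adjusted p = 0.0199) and without both stimulated libraries numbered 3 (edgeR, 1.11e-06). For *Il1a* and *Il1b* the 95% intervals of the difference, -2.19 to 1.50 and -2.87 to 2.79, are too wide to place the resting response. For *Nlrp3* (-0.20, adjusted p = 0.195), *Il18* (-0.28, adjusted p = 0.465) and *Casp4* (-0.26, adjusted p = 0.166) no difference was called by edgeR.

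Seen the other way, the same difference is that between activation with and without the inhibitor. With DGAT1i present in both groups, all 10 genes were called between IFNγ + LPS and M0, 9 higher and *Nlrp1b* lower, against 70.6% of all genes (35.3% higher and 35.3% lower), and the groups did not overlap in any of the 10, against 72.5% of all genes. *Nlrp1b* fell by 1.00 on the log2 scale (edgeR, adjusted p = 2.05e-12), from 40.4, 46.8 and 42.5 CPM. The rise of *Il1rn* was 6.59 with DGAT1i and 6.13 without, that of *Casp1* 2.60 and 2.87, that of *Gsdmd* 1.97 and 2.28, that of *Casp4* 3.76 and 4.02, that of *Nlrp3* 0.81 and 1.02, and that of *Il18* 1.27 and 1.56. For *Il18bp* the gap was wider, at 5.65 and 6.94, and its ratios of CPM were 49.9 (95% counting interval 42.7 to 58.7) and 124 (98.2 to 159). These intervals cover counting error only and not the spread between libraries. In the edgeR fit of all 12 libraries the gap was not called (adjusted p = 0.297), though some alternatives called it. *Il1a* and *Il1b* still rose under DGAT1i, with ratios of CPM of 153 (95% counting interval 59.1 to 563) and 267 (73.4 to 2214) against 4 and 2 reads.

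Levels were also compared between the genes, per kilobase of all annotated exons together, which for *Il1rn* are 5535 bases where its longest transcript has 2554. In M0 *Casp1* was highest (52.3 CPM per kb), followed by *Gsdmd* (19.1), *Nlrp3* (15.2), *Nlrp1b* (7.00), *Il1rn* (5.87), *Il18* (5.60), *Casp4* (3.89), *Il18bp* (1.10), *Il1a* (0.255) and *Il1b* (0.168). The libraries of *Il1rn* and *Il18*, and those of *Il1a* and *Il1b*, overlapped in M0. The caspase 1 and gasdermin D genes led in M0 and the IL-1 agonists came last, also per kilobase of the longest transcript. By that length *Il1rn* (12.7) stood above *Nlrp1b* (10.2) without overlap, and *Casp4* (7.59) above *Il18* (6.53) with overlapping libraries. With IFNγ + LPS *Il1rn* (411 CPM per kb) and *Casp1* (381) overlapped at the top, *Il18bp* (136), *Gsdmd* (93.1) and *Casp4* (63.0) followed, *Il1a* (46.7) and *Il1b* (40.6) overlapped, and *Nlrp3* (30.8), *Il18* (16.4) and *Nlrp1b* (6.93) were lowest. Per kilobase of the longest transcript *Il1rn* (891) stood above *Casp1* (381) without overlap, and *Gsdmd* (123) overlapped *Casp4* (123).

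The order at the lower end differed with DGAT1i. With IFNγ + LPS and DGAT1i, *Il1rn* stood at 488 CPM per kb of exon and *Casp1* at 322 (1058 and 322 by the longest transcript), and *Il18* (22.3) and *Nlrp3* (21.2), which overlapped each other, both stood above *Il1a* (13.9) and *Il1b* (12.5). By the longest transcript the means kept *Il18* (26.0) and *Nlrp3* (21.4) above *Il1b* (17.6) and *Il1a* (13.9), but libraries of *Il1b* overlapped those of both *Nlrp3* and *Il18*. *Nlrp1b* stayed last, at 3.43 CPM per kb. In M0 with DGAT1i the top 3 were *Casp1*, *Gsdmd* and *Nlrp3*, as in M0, and *Il18* (9.22) overlapped *Nlrp1b* (6.86).

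**Figure D4:**
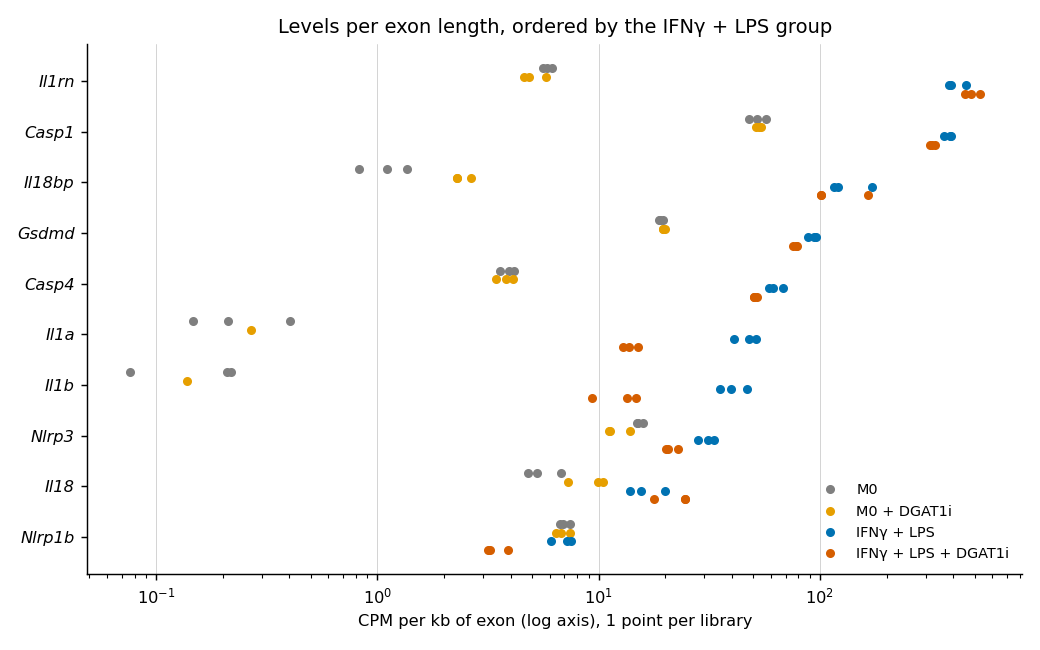
CPM per kilobase of exon (log axis, 1 point per library) of the 10 genes in the 4 groups, ordered by the level with IFNγ + LPS; libraries with 0 reads are not drawn. *Il1rn* and *Casp1* lead in stimulated cells, at 411 and 381 CPM per kb without DGAT1i, and *Il1a* and *Il1b* span the widest range between the groups.

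The genes whose levels over the 12 libraries were most like those of the cytokines and the antagonist were looked up among 10284 genes, by the root mean square of the difference in log2 CPM after each gene was centred. All libraries enter this measure, so it is a description of levels and largely of the step from resting to stimulated cells. For *Il1a* the nearest was *Il1b* (0.51), with *Kynu* (0.51) and *Gbp11* (0.52) next. For *Il1b* they were *Fpr1* (0.38), *Kynu* (0.40) and *Gbp11* (0.42), and *Fpr1*, which encodes a receptor for formylated peptides, stood at 78.7 CPM with IFNγ + LPS and 17.4 CPM with DGAT1i added. For *Il1rn* they were *Ifi209* (0.20), *Slamf8* (0.25) and *Igtp* (0.26). *Igtp*, an interferon-inducible GTPase, stood at 1207 CPM with IFNγ + LPS and 1243 CPM with DGAT1i. For *Il18* the nearest were *Esr1* (0.14) and *Celsr3* (0.20), whose group means stood between 3.86 and 15.9 CPM.

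The rest of the pathway was followed with 6 lists holding 66 other genes, of which *Irgb10* matched no identifier and 50 had enough reads. With IFNγ + LPS against M0, 33 of the 50 were higher and 12 lower (37.1% and 36.2% of all genes tested), or 24 and 17 when libraries were scaled by size only. For DGAT1i in IFNγ + LPS, 10 were higher and 17 lower (13.5% and 16.3% of all genes), with equal counts under RLE size factors and library size only, and the median log2 change was -0.11. In M0, DGAT1i left 7 of the 50 higher and 8 lower (11% and 13.4% of all genes), or 6 and 10 with RLE size factors and 4 and 12 with library size only. In the lists that follow, counts of genes called with DGAT1i in stimulated cells stand against 29.8% of all genes, 13.5% higher and 16.3% lower. Some of the calls counted were lost under alternatives, also with 1 library left out. A gene lost its call in up to 3 settings among receptor signalling genes and up to 6 among adaptors and regulators. Among caspase, gasdermin and membrane rupture genes it was up to 8. In each list the genes with the 3 smallest p-values for DGAT1i in IFNγ + LPS are named, with the exception given in the methods.

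Of the other ligands and receptors, few had enough reads. *Il1f9*, which encodes the agonist IL-36γ, stood at 4.21, 4.68 and 5.62 CPM with IFNγ + LPS and at 9.88, 9.39 and 9.34 CPM with DGAT1i, a log2 rise of 0.97 ± 0.24 (edgeR, adjusted p = 0.000843). It rose while *Il1a* and *Il1b*, agonists of the same family, fell. *Il33* had a log2 change of 0.05 ± 0.47. None of the 3 receptor genes with enough reads was called in stimulated cells, namely *Il1rap*, the shared accessory chain (-0.40 ± 0.26, edgeR, adjusted p = 0.261), *Il18rap* (0.04 ± 0.47) and *Il1rl1*, which had 1 read in each stimulated group. At an unadjusted p under 0.05 edgeR gave 0 of the 3, and DESeq2 called 0. In M0 DGAT1i lowered *Il1rl1*, the receptor for IL-33, from 4.50, 6.79 and 4.59 CPM to 1.06, 1.70 and 1.98 CPM (log2 -1.74 ± 0.32, edgeR, adjusted p = 5.49e-06). *Il18rap*, a chain of the IL-18 receptor, was also lower there, with 10, 19 and 14 reads in M0 and 5, 4 and 8 with DGAT1i (log2 -1.35 ± 0.46, edgeR, adjusted p = 0.0142). That call was lost with DESeq2, and without replicate 2 of M0 or replicate 1 or 2 of M0 with DGAT1i (adjusted p up to 0.108).

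Downstream of the receptors, 2 of 12 genes rose and 5 fell with DGAT1i in stimulated cells. *Myd88*, the adaptor of IL-1, IL-18 and Toll-like receptors, stood at 154, 159 and 158 CPM without and 101, 109.7 and 108 CPM with DGAT1i, a log2 fall of -0.57 ± 0.06 (edgeR, adjusted p = 2.66e-10). *Traf6*, the ubiquitin ligase that acts after it, rose by 0.41 ± 0.09 (edgeR, adjusted p = 0.000162), and the kinase gene *Irak1* by 0.26 ± 0.07 (edgeR, adjusted p = 0.0046). The call for *Irak1* was lost when IFNγ + LPS replicate 3 was left out, or replicate 2 of that group with DGAT1i (adjusted p = 0.0644 and 0.0601), and without both stimulated libraries numbered 3 (adjusted p = 0.0511). The genes of the adaptor and of the ligase thus went in opposite directions.

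Of 9 other sensors 1 rose and 1 fell, against 29.8% of all genes called. *Naip2*, whose product detects bacterial secretion systems, rose by 0.29 ± 0.06 on the log2 scale (edgeR, adjusted p = 0.000113). *Aim2*, a sensor of DNA in the cytosol, fell from 85.7, 92.9 and 83.7 CPM to 66.9, 74.5 and 70.0 CPM, by 0.31 on the log2 scale (edgeR, adjusted p = 0.00123). *Naip5* had a log2 change of 0.22 ± 0.09 (edgeR, adjusted p = 0.056). It was called in some settings, among them when the first replicate of the group given both treatments was left out (edgeR, adjusted p = 0.0442). *Nlrp1a*, the neighbour of *Nlrp1b*, had a log2 change of -0.36 ± 0.20 (edgeR, adjusted p = 0.175).

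Of the 14 adaptors and regulators 4 were higher and 7 lower. *Tmem173*, which encodes the DNA-signalling adaptor STING, stood at 88.2, 82.1 and 87.3 CPM with IFNγ + LPS and at 37.9, 38.2 and 36.2 CPM with DGAT1i, a log2 fall of -1.20 ± 0.09 (edgeR, adjusted p = 2.44e-17). *Txnip*, which encodes a thioredoxin-binding protein, rose from 277, 308 and 303 CPM to 458, 463 and 458 CPM (log2 0.63 ± 0.05, edgeR, adjusted p = 1.86e-14). *Pycard* encodes ASC, the adaptor that joins NLRP3 to caspase 1. It stood at 38.3, 35.3 and 33.0 CPM with IFNγ + LPS and at 65.0, 59.0 and 54.4 CPM with DGAT1i, a log2 rise of 0.75 ± 0.09 (edgeR, adjusted p = 2.03e-09).

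*Pycard* thus went against *Nlrp3* and *Casp1* with DGAT1i in stimulated cells, and also with IFNγ + LPS alone, where it fell by 0.88 on the log2 scale while both rose. In M0 DGAT1i lowered it, as it did *Nlrp3*, from 69.3, 67.5 and 58.8 CPM to 52.5, 49.4 and 50.4 CPM (log2 -0.36 ± 0.08, edgeR, adjusted p = 0.000199). The difference between its DGAT1i responses was 1.11 ± 0.12 (edgeR, adjusted p = 2.2e-10), and for *Txnip* it was 0.63 ± 0.07 (edgeR, adjusted p = 3.05e-09).

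Of 10 other caspase, gasdermin and membrane rupture genes 2 rose and 4 fell. *Chmp4b*, a part of the ESCRT machinery that repairs gasdermin pores, fell by 0.24 on the log2 scale (edgeR, adjusted p = 0.000368). *Mlkl*, the effector of necroptosis, fell by 0.26 (edgeR, adjusted p = 0.00156).

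**Figure D5:**
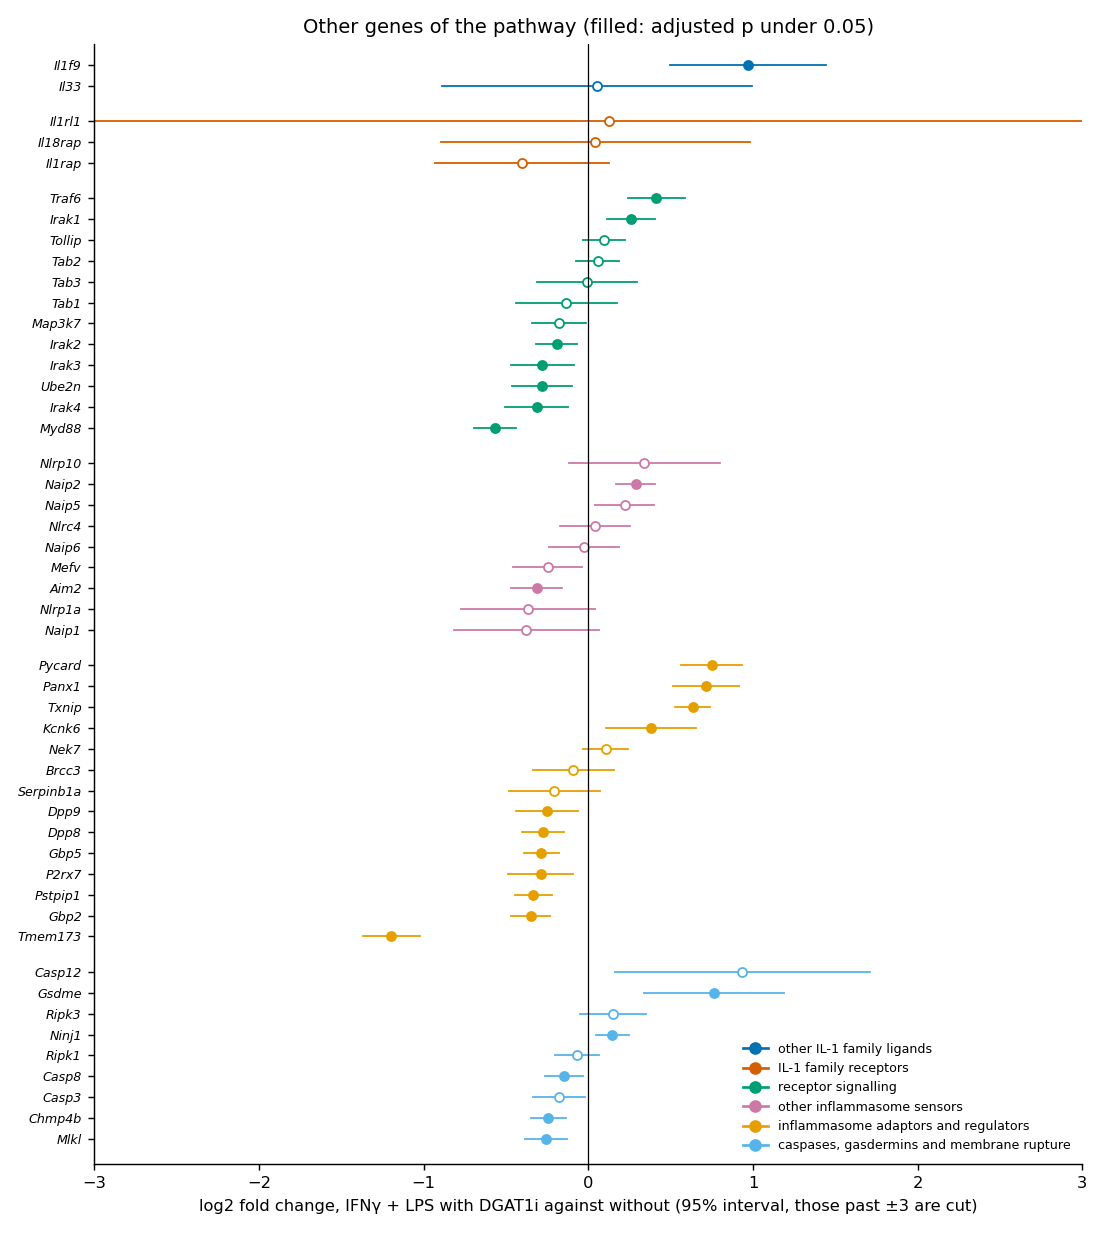
Log2 fold change of 49 of the 50 other genes of the pathway (1 is not reported here), IFNγ + LPS with DGAT1i against without, grouped by list; lines are 95% intervals and filled points passed an adjusted p of 0.05 in edgeR. *Tmem173* (-1.20) lies lowest among the called genes and *Il1f9* (0.97), *Pycard* (0.75) and *Txnip* (0.63) lie to the right of 0.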

How the data were processed

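RNA was sequenced from 12 macrophage libraries, and the authors deposited a table of raw counts per gene, which came from an in-house pipeline without normalization. The submitters' processing notes name GRCm38 and DESeq2. Aligner, counter and annotation release: not given in the sources used here. The labels name a NEBNext kit where the methods of the study name a TruSeq stranded kit, so the strand setting is unknown. Groups were taken from the sample labels. Totals ran from 4996014 to 6621671 reads, at which 3 reads correspond to 0.396 to 0.700 CPM; intervals and limits for low counts (95%, exact) cover counting error only.

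Identifiers were matched without version to GENCODE M21 (47310 of 47937). The fit used edgeR 4.0.16 in R 4.3.3: filterByExpr, TMM, glmQLFit (robust) with 1 mean per group over the 12 libraries, quasi-likelihood tests and Benjamini-Hochberg adjustment over all 11760 genes tested. The test was tried on simulated data with known changes. Ratios of reads, with 0.5 reads added, were compared by exact permutation. Promoter sequences were taken from RefSeq on GRCm38.p6, and near-identical copies were searched with BLAST 2.17.0. Figures were drawn with matplotlib 3.10.9.

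The members and all lists of genes were chosen with earlier results of these data known. Every member is named; of each pathway list the genes with the 3 smallest p-values for DGAT1i in IFNγ + LPS are named, and *Nlrp1a*, *Fpr1* and *Igtp* were added after their values were seen. Results for some genes that these rules would name are not reported here. Alternatives were RLE size factors, library size only, no filter, a mean CPM of at least 1, DESeq2 1.42.0, only the libraries compared, each library left out, and a block for the replicate number. Leaving out both stimulated libraries numbered 3, levels per kilobase of the longest transcript, and all alternatives for the pathway genes, were added after seeing the data.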

Additional observations from a re-analysis of the deposited data

Results flagged for a closer look

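By edgeR's test the response to DGAT1i differed between stimulated and resting cells in 4 of the 10 members and in 11 of the 50 other genes of the pathway, against 18.5% of all genes. Of the 50, 3 were called higher and 8 lower, or 4 and 4 with library size only. Calls among the 11 were lost in up to 8 settings, DESeq2 among them. The 4 members, and the 4 of those 11 that are also named for their response in stimulated cells, are given here. Among the IL-1 family and inflammasome genes the differences (stimulated minus resting, log2) were 0.46 for *Il1rn*, -0.98 for *Nlrp1b*, -0.27 for *Casp1* and -0.31 for *Gsdmd*. *Nlrp1b* kept this call in all 19 other settings tried, with values from -1.08 to -0.93, and so did *Gsdmd*, with values from -0.35 to -0.26. Among these other genes of the pathway they were -0.30 for *Myd88*, 0.63 for *Txnip*, 1.11 for *Pycard* and -0.25 for *Chmp4b*. Those of *Myd88* and *Chmp4b* (adjusted p = 0.0238 and 0.0207) were lost in 6 settings each. For both these included DESeq2 (adjusted p = 0.102 and 0.0615) and library size only. *Myd88* was also lost without replicate 1 of M0, replicate 2 of M0 with DGAT1i replicate 1 of IFNγ + LPS with DGAT1i, or both stimulated libraries numbered 3 (adjusted p = 0.0538 to 0.103), and *Chmp4b* without replicate 3 of M0, 2 of IFNγ + LPS, 3 of M0 with DGAT1i or 2 of IFNγ + LPS with DGAT1i (0.0538 to 0.0928). *Pycard* was higher with DGAT1i in all 3 stimulated libraries and lower in all 3 resting libraries than without it.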

How the results depend on the processing

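The number of members called stayed within 1.5 times its main value in every comparison under every alternative, except that the difference between the DGAT1i responses gave 2 in place of 4 without replicate 2 of M0. Leaving out each library in turn, that number ranged from 2 to 4. Scaling by library size only put the median of all genes at -0.46 for IFNγ + LPS and at -0.43 for IFNγ + LPS under DGAT1i. DESeq2 called 2585 genes for DGAT1i in IFNγ + LPS where edgeR called 3508, and 1927 against 2869 in M0. *Il1a* and *Il1b*, with few resting reads, are limited by depth there.

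Among the members, directions turned only for values that were not called. For IFNγ + LPS, *Nlrp1b* ranged from -0.073 to 0.073 with each library left out. For DGAT1i in IFNγ + LPS, *Il18bp* ranged from -0.43 to 0.040. For DGAT1i in M0, the ranges were -0.090 to 0.017 for *Nlrp1b*, -0.039 to 0.090 for *Casp1* and -0.10 to 0.022 for *Casp4*, and library size only gave -0.035 for *Casp1* and -0.014 for *Gsdmd*. For the difference between the responses, *Il1a* ranged from -0.90 to 2.92 and *Il1b* from -0.55 to 2.36, and *Il1b* was at 0.024 with library size only, 0.17 with DESeq2 and 0.11 without both stimulated libraries numbered 3. Among pathway genes that were not called, *Il33* ranged from -0.22 to 0.40, *Il18rap* from -0.35 to 0.44 and *Il1rl1* from -2.07 to 2.19 for DGAT1i in IFNγ + LPS, and without both libraries numbered 3 *Il33* was at -0.17 and *Il18rap* at -0.0078. With library size only, called rises of pathway genes also turned, with IFNγ + LPS for *Ube2n* (0.35 to -0.12), *Naip6* (0.43 to -0.043) and *Irak4* (0.21 to -0.26), and under DGAT1i for *Ube2n*, *Pycard*, *Txnip*, *Brcc3* and *Ripk1* (0.23 to 0.32 before, -0.19 to -0.10 after). By that setting the median of all genes was -0.46 with IFNγ + LPS and -0.43 under DGAT1i, where the main fit gave 0.01 and -0.01. The cause was not tested. *Il1rn* in M0 was called lower with library size only (-0.27, adjusted p = 0.0471). For DGAT1i in IFNγ + LPS *Naip5* was called higher in 3 settings.

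The labels do not say that replicate numbers mark a shared culture, and they were not used to pair samples: over 18 pairs with the same number in different groups, deviations from the group means correlated between -0.022 and 0.069, none over 0.1, but 9 of 12 libraries correlated best with their own number, a hint from the data, so that a weak pairing may exist. With the replicate number as a block, *Il18bp* was called in M0 (1.12, adjusted p = 2.4e-05), in IFNγ + LPS (-0.17, adjusted p = 0.0237) and for the difference (-1.29, adjusted p = 7.6e-06); no other member's call changed under the replicate block.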
